A study of Homo sapiens with 8 samples.

Results

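Glycolysis and hypoxia response genes were described as a set of 39 genes in sublines of the human esophageal squamous cell carcinoma lines KYSE180 and KYSE30. The set holds 18 enzymes and regulators of glycolysis and 21 other genes of the hypoxia response, matched by name. They were chosen with earlier results of these data known. A gene was represented by its brightest probe set among those annotated with its symbol alone. On this basis 36 of the 39 were measured, all of them past the filter on dim probe sets, among 14180 genes tested of 19775 measured. SLC16A1 and SLC16A3, which carry lactate across the membrane, and CA9, a carbonic anhydrase, were not analysed here.

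Cells of each line had passed through 4 rounds of selection on transwell membranes, a test of migration through pores. The groups were 180D and 180U, the KYSE180 cells that did and did not cross the membrane, and 30D and 30U, the same fractions of KYSE30. Each group had 2 arrays, and each D subline shares 1 of 4 parental populations with a U subline of its line. All sublines were grown for 2 passages after harvest in standard culture, and the labels name no low-oxygen treatment. The measurement was thus of sublines kept in the same culture conditions, each a population and not a clone by the labels.

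Glycolysis turns glucose into pyruvate, which lactate dehydrogenase converts to lactate or which enters mitochondria. When oxygen is short, hydroxylases of the EGLN family stop marking the alpha subunits of the hypoxia-inducible factor, encoded by HIF1A and EPAS1, for degradation. The stabilised factor then raises transcription of glucose transporters, glycolytic enzymes, angiogenic factors and mitophagy genes. Much of this control acts on the protein of the alpha subunit, which transcript arrays do not measure.

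The 8 arrays held 54675 probe sets, with medians over all probe sets of 5.02 to 5.04 (log2). The epithelial markers CDH1, EPCAM, KRT8, KRT18 and KRT19 were between 11.2 and 13.7 in every array, and CLDN4 at 8.07 to 10.11. The basal squamous keratins KRT5 and KRT14 were at 12.2 to 12.4 and 13.3 to 13.6 in KYSE180. In KYSE30, KRT5 was at 4.48 to 4.85 and KRT14 at 3.45 to 4.27, against a filter value of 4.46, so KRT14 lay below the filter there. Among the other squamous markers, SFN was at 12.70 to 13.00 in KYSE180 and 12.60 to 12.85 in KYSE30, and PERP at 12.96 to 13.13 and 12.26 to 12.38. SOX2 was at 11.61 to 11.70 in KYSE180 and 7.85 to 9.81 in KYSE30. DSG3 was at 10.37 to 10.81 in KYSE180 and 7.05 to 7.19 in KYSE30, and DSC3 at 10.20 to 10.56 and 5.51 to 6.89. PKP1 was at 10.12 to 10.44 in KYSE180 and 4.18 to 5.05 in KYSE30, near the filter value. Of the 7 fibroblast markers, COL1A2, COL3A1 and LUM were below the filter in every group. The controls of the 180D replicate 1 array differed from those of the others, with a 3′ minus 5′ difference of ACTB of 1.92 against 1.06 to 1.42 in the other 7, and an 18S control of 11.79 against 12.88 to 13.01.

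The promoters of 4 genes that moved between D and U sublines are printed because the hypoxia-inducible factor is known to bind the letters ACGTG and GCGTG. Each is the 250 bases before a start site in RefSeq, GRCh38.p14, with matches to either motif on either strand in capitals. CACGTG holds ACGTG on both strands and was counted as 1 place. HK2 (chr2:74833877-74834126, plus strand), encoding a hexokinase, had 3 places, and a second HK2 window, before another start site and not printed, had 4. ANKRD37 (chr4:185396591-185396840, plus strand), encoding an ankyrin repeat protein, had 2. DDIT4 (chr10:72273674-72273923, plus strand), encoding an inhibitor of mTORC1 signalling, had 3. P4HA2 (chr5:132227092-132227341, minus strand), encoding a collagen prolyl hydroxylase subunit, had 0. This window lies within the gene as annotated (chr5:132190147-132227853), and the bases before the gene's outer end were not searched.
HK2: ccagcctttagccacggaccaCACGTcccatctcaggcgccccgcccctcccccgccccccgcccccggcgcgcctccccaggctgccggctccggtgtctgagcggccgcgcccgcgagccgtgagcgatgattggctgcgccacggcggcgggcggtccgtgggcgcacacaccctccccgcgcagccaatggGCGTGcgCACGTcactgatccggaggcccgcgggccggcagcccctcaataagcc
ANKRD37: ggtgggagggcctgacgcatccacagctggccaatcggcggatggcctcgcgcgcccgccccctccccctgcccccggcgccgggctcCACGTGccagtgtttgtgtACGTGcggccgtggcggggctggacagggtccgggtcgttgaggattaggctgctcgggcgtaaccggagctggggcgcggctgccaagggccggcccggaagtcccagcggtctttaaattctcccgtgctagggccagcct
DDIT4: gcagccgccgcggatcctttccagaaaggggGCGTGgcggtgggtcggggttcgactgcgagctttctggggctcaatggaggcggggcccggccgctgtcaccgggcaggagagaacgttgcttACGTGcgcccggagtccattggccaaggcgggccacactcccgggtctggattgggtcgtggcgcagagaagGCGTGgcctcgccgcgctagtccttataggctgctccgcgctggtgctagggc
P4HA2: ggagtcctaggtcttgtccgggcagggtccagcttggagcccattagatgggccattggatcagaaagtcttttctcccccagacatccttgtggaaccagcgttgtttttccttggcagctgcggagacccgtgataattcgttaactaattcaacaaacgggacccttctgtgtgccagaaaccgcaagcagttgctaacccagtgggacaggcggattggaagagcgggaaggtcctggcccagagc

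Over windows of 300 bases, which add the first 50 of the transcript, 43 of 63 member windows held a match (68.3%). The windows came from 35 of the 39 genes, 32 of them with a match in at least 1 window. NDRG1, VEGFA, BNIP3L and SLC16A1 were not searched. The share was 58.6% over the windows of all genes tested and 48.4% over all windows of the table. With 2 or more matches the order was not the same: 23.8% of member windows, 26.5% of windows of genes tested and 19.9% of all. Median GC content was 68.0% in the member windows, 64.3% in those of genes tested and 58.7% in all, and its part in the shares was not tested. The share describes letters only, and the 4 printed genes were picked after their values were seen.

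In KYSE180, DDIT4 rose in the D sublines, while EPAS1, which encodes an alpha subunit of the hypoxia-inducible factor, and NDRG1, a gene induced by hypoxia and cell stress, fell. These were 3 of the 36 members (8.33%), against 3.75% of all genes tested, with 2.55% higher and 1.21% lower. Of the 18 glycolytic genes 0 passed in limma, and 2, ALDOC and ENO2, had an unadjusted p under 0.05, against 2721 of the 14180 genes tested. Of the other 18 genes 1 rose and 2 fell. In RNA of whole cultures, fewer cells with a transcript and less of it per cell cannot be told apart. With the parental population as a block, 1 of the 3 members passed, DDIT4 (adjusted p = 0.0235), and 230 of all genes, against 532 without it.

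DDIT4 was at 10.28 and 10.40 (log2 expression) in the 180D arrays, against 9.89 and 9.76 in 180U. The groups did not overlap, and the rise was 0.51 ± 0.07 (log2, SE), 1.43-fold, with an adjusted p of 0.00984 in limma. EPAS1 was at 8.72 and 8.66 in 180D, against 9.17 and 9.09 in 180U. Both D arrays were below both U arrays, and it fell by 0.44 ± 0.06 (adjusted p = 0.00835 in limma). NDRG1 was at 7.88 and 7.91 in 180D, against 8.30 and 8.25 in 180U, again without overlap, and it fell by 0.37 ± 0.05 (adjusted p = 0.0121 in limma). The groups were also apart for members that did not pass, among them HIF1A, SLC2A1 and CA12. The share of all genes without overlap was not computed.

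These 3 calls depended on how the spread was estimated. With only the 4 arrays of KYSE180 the adjusted p was 0.0598 for DDIT4, 0.0672 for EPAS1 and 0.0906 for NDRG1. With the block it was 0.0566 for EPAS1 and 0.0613 for NDRG1. Leaving out 180U replicate 2 gave 0.0566 for DDIT4, and leaving out 180U replicate 1 or 180D replicate 1 gave 0.06 and 0.067 for NDRG1. Without 180D replicate 1, the array whose controls differed, DDIT4 rose by 0.58 (adjusted p = 0.0278) and EPAS1 fell by 0.47 (adjusted p = 0.0348). Of the fibroblast markers 1 of 4 tested, COL1A1, rose in this contrast (0.58 ± 0.11, adjusted p = 0.035), and the log2 of their summed level was 8.53 to 8.72 in 180D and 8.24 to 8.27 in 180U. Of 8 squamous markers tested 0 passed in limma and 5 had an unadjusted p under 0.05, against 2721 of the 14180 genes tested. All 8 squamous changes were below 0, with a median of -0.192. The log2 of their summed level was 15.16 to 15.21 in 180D and 15.36 to 15.37 in 180U. The part of these markers in the results was not tested.

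Among the members that did not pass in KYSE180, CA12, a membrane carbonic anhydrase, had the change farthest from 0, with -0.55 ± 0.13 and an adjusted p of 0.0722 in limma. It was at 5.62 and 5.40 in 180D, against 6.23 and 5.89 in 180U. ALDOC, an aldolase, had a change of 0.28 ± 0.07 (adjusted p = 0.102), and ENO2, an enolase, one of -0.24 ± 0.09 (adjusted p = 0.213). The glycolytic genes lay between these last changes. HIF1A was at 11.80 and 11.75 in 180D, against 11.83 and 11.92 in 180U, and SLC2A1, the glucose transporter GLUT1, was at 10.10 and 10.18 in 180D, against 10.41 and 10.31 in 180U. Neither passed, with adjusted p-values of 0.417 and 0.309. LDHA, a lactate dehydrogenase subunit, was at 13.04 and 12.99 in 180D, against 13.03 and 13.00 in 180U, and the groups overlapped.

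In KYSE30, 6 members rose in the D sublines and 1 fell. The rises were in NDRG1, HK2, ANKRD37, PFKP, P4HA2 and VEGFA, and the fall was in ADM. They made up 7 of 36 members (19.4%), near the 16.5% of all genes tested that passed, of which 8.42% rose and 8.12% fell. Of the glycolytic genes 2 of 18 rose (11.1%), and of the other genes 4 rose and 1 fell of 18 (27.8%). The median change was 0.037 (log2) over the 36 members and 0.008 over all genes tested. Of 8 squamous markers tested 2 rose in 30D, SFN and KRT14, and 2 fell, SOX2 with a change of -1.94 and DSC3 with -1.28. This was 50%, against the 16.5% of all genes. KRT14 was below the filter in both KYSE30 groups and entered the test through its level in KYSE180. The part of these markers in the results was not tested.

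The 2 glycolytic genes encode enzymes of the early, ATP-consuming steps. HK2, which phosphorylates glucose on entry, was at 8.95 and 8.99 (log2 expression) in the 30D arrays, against 8.41 and 8.34 in 30U. The rise was 0.59 ± 0.07, 1.51-fold (adjusted p = 0.00253 in limma). PFKP, the platelet-type phosphofructokinase, was at 10.91 and 10.84 in 30D, against 10.40 and 10.42 in 30U, and rose by 0.46 ± 0.06, 1.38-fold (adjusted p = 0.00327). The arrays did not overlap for either gene, nor did they for members that did not pass, among them LDHA, PGAM1, ALDOA and GPI. Both calls held under every alternative run. The mean over the 3 probe sets of HK2 gave a smaller rise of 0.30 (adjusted p = 0.022), and the other 2, with changes of 0.18 and 0.13, did not pass in a fit of all probe sets.

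The other 16 glycolytic genes had changes between -0.15, for PFKM, the muscle-type phosphofructokinase, and 0.27, for ALDOC, and none passed. ALDOC was just short of the threshold (adjusted p = 0.0505 in limma), and its values were 6.09 and 6.27 in 30D, against 5.95 and 5.88 in 30U. LDHA was at 13.40 and 13.43 in 30D, against 13.35 and 13.37 in 30U, a change of 0.05 ± 0.05 that did not pass (adjusted p = 0.519). By their brightest probe sets, the late enzymes PGK1, PGAM1, ENO1 and PKM had changes between -0.04 and 0.05. In a fit of all probe sets, the others of PGK1 changed by -0.14 to 0.22 and those of ENO1 by -0.15 to -0.02. The second of PKM changed by 0.22 (adjusted p = 0.0585 in limma), and none of these other probe sets passed.

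NDRG1 had the lowest p of the members, at 9.79 and 9.82 (log2 expression) in 30D, against 9.14 and 9.07 in 30U. The rise was 0.69 ± 0.05, 1.62-fold (adjusted p = 0.000425 in limma), and it passed under every alternative run. ANKRD37 was at 7.05 and 7.00 in 30D, against 6.60 and 6.39 in 30U, with a wider gap between the U arrays, and rose by 0.53 ± 0.11, 1.44-fold (adjusted p = 0.0159). P4HA2 was at 10.18 and 10.23 in 30D, against 9.83 and 9.78 in 30U, and rose by 0.40 ± 0.07, 1.32-fold (adjusted p = 0.00953). Its second probe set past the filter rose too, by 0.33, in a fit of all probe sets (adjusted p = 0.0251).

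Of the 3 members that encode secreted factors, VEGFA rose, ADM fell and ANGPTL4 did not pass (0.04, adjusted p = 0.661 in limma). VEGFA, the angiogenic growth factor, was at 8.67 and 8.65 in 30D, against 8.29 and 8.30 in 30U, and rose by 0.36 ± 0.07, 1.28-fold (adjusted p = 0.0113 in limma). The mean over its probe sets gave 0.20 (adjusted p = 0.0342). In a limma fit of all probe sets, a dimmer VEGFA probe set rose by 0.42 (adjusted p = 0.0178). Others, with changes of 0.14 and -0.11, did not pass. ADM, the vasodilator peptide adrenomedullin, was at 9.08 and 9.06 in 30D, against 9.27 and 9.32 in 30U, and fell by 0.23 ± 0.06 (adjusted p = 0.0462). The groups were apart in all 3 genes, so this did not set those that passed apart from ANGPTL4.

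Several of these calls were not kept when 1 array was left out, which leaves 1 array in its group. Without 30U replicate 2, fewer of all genes tested passed too. Without any 1 of the 4 KYSE30 arrays (30D or 30U replicate 1 or 2), VEGFA had an adjusted p of 0.0632 to 0.0732 and ADM one of 0.137 to 0.217. ADM also missed the threshold with the block (0.0657) and with no filter on dim probe sets (0.0888). P4HA2 had 0.0667 without 30D replicate 2 and 0.069 without 30U replicate 2. ANKRD37 had 0.0884 without 30D replicate 1, 0.0689 without 30D replicate 2 and 0.096 without 30U replicate 2.

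Among the members, the alpha subunits and the oxygen-sensing hydroxylases did not pass in KYSE30. HIF1A was at 11.53 and 11.60 in 30D, against 11.61 and 11.54 in 30U, so the groups overlapped. EPAS1 was at 10.80 and 10.85 in 30D, against 11.01 and 10.97 in 30U, a change of -0.16 ± 0.06 (adjusted p = 0.101). EGLN1 and EGLN3, the hydroxylases, had changes of 0.13 and 0.10. SLC2A1 was at 8.70 and 8.61 in 30D, against 8.46 and 8.78 in 30U, and overlapped. DDIT4, which rose in 180D, was at 11.75 and 11.69 in 30D, against 11.70 and 11.69 in 30U.

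**Figure D1:**
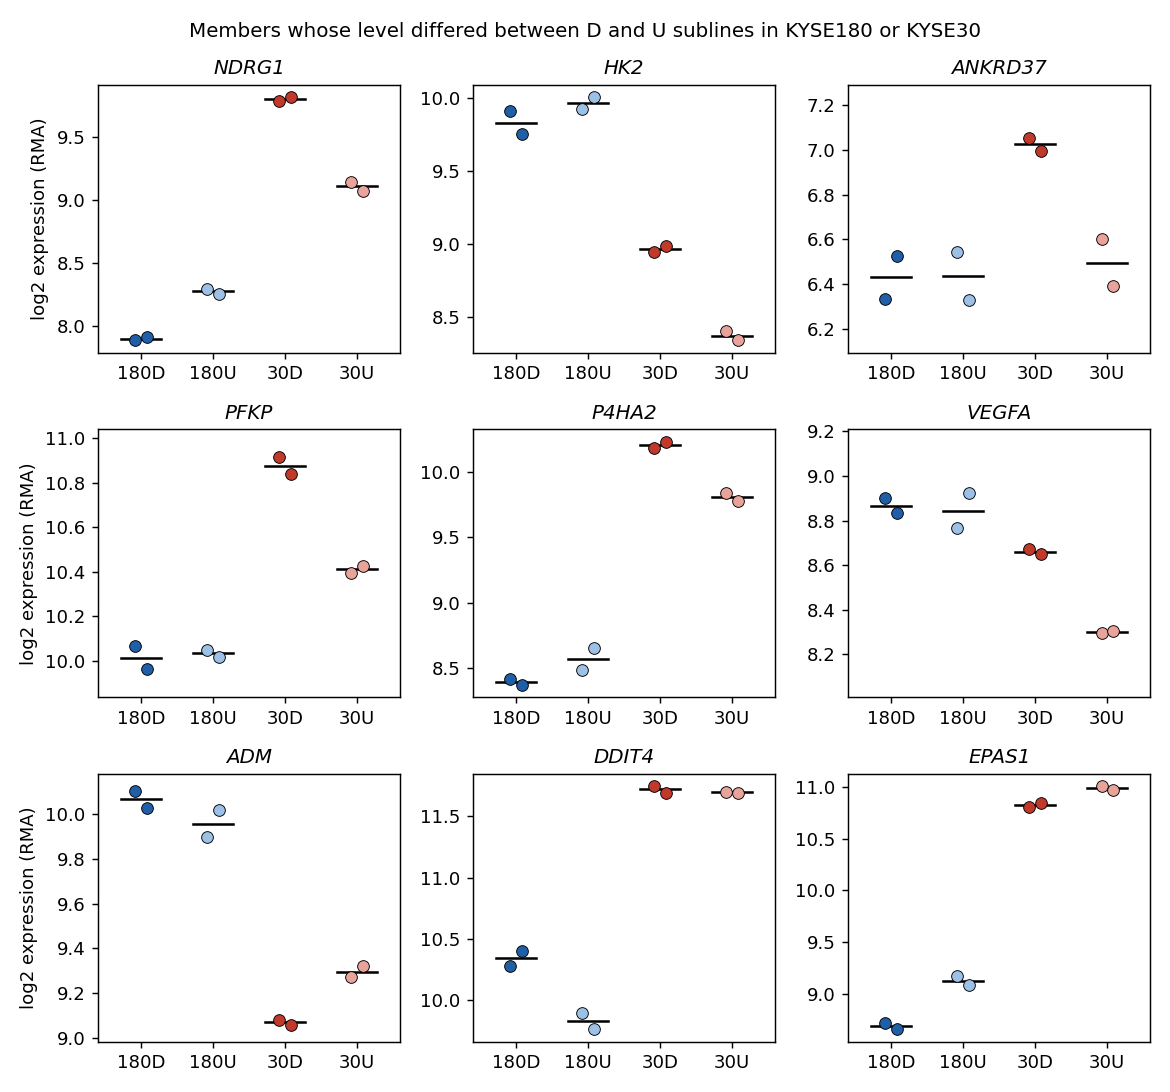
Log2 expression (RMA, vertical axes, which do not start at 0) of the 9 members that passed in either line, by group, with a point for each array and a bar for the mean of 2. NDRG1 is lower in 180D than in 180U but higher in 30D than in 30U, and the arrays of the D and U groups do not overlap in either line.

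The D minus U change was set between the lines by its own test, as the KYSE180 change minus the KYSE30 change. It passed for 6 of 36 members (16.7%), against 12.2% of all genes tested. The difference was above 0 for 2 of the 6 and below 0 for 4, against 6.94% and 5.21% of all genes. NDRG1 moved in opposite directions, with a change of -0.37 in KYSE180 and 0.69 in KYSE30, and the difference of -1.07 ± 0.07 passed (adjusted p = 0.000365 in limma) under every alternative run. HK2, P4HA2 and PFKP had changes of -0.13, -0.18 and -0.02 in KYSE180, none past the threshold, against 0.59, 0.40 and 0.46 in KYSE30. Their differences were -0.73, -0.58 and -0.48 (adjusted p = 0.0057, 0.0121 and 0.013 in limma). DDIT4 ran the other way, with 0.51 in KYSE180 and 0.02 in KYSE30, a difference of 0.49 ± 0.10 (adjusted p = 0.0202). ADM had a change of 0.11 in KYSE180, not past the threshold, and -0.23 in KYSE30, a difference of 0.34 ± 0.09 (adjusted p = 0.0492).

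For VEGFA, CA12, ANKRD37 and EPAS1 the difference itself did not pass, with adjusted p-values of 0.0575, 0.0607, 0.0612 and 0.0682 in limma. By their brightest probe sets, their changes were thus not shown to differ between the lines. In a limma fit of all probe sets a dimmer one of CA12 passed (-0.39, adjusted p = 0.0311). Its others past the filter, at -0.67 to -0.06, did not. A dimmer EGLN1 probe set passed too (-0.43, adjusted p = 0.0242), beside -0.10 and -0.06 for its others past the filter. The HK2 difference was -0.26 with the mean of its probe sets and did not pass (adjusted p = 0.116). The second P4HA2 probe set past the filter changed by 0.10 in KYSE180, against -0.18 for the brightest. That probe set's difference of -0.23 did not pass in a fit of all probe sets (adjusted p = 0.191 in limma). The P4HA2 difference had adjusted p-values of 0.0515 and 0.0528 without 30D or 30U replicate 2. The PFKP difference had 0.0507 to 0.0581 without 30D replicate 1 or either 30U array. The DDIT4 difference had 0.054 to 0.0789 without any of the 4 KYSE30 arrays or 180U replicate 2. The ADM difference had 0.0545 to 0.159 without any array other than 180U replicate 2, 0.0747 with the block and 0.0949 with no filter.

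**Figure D2:**
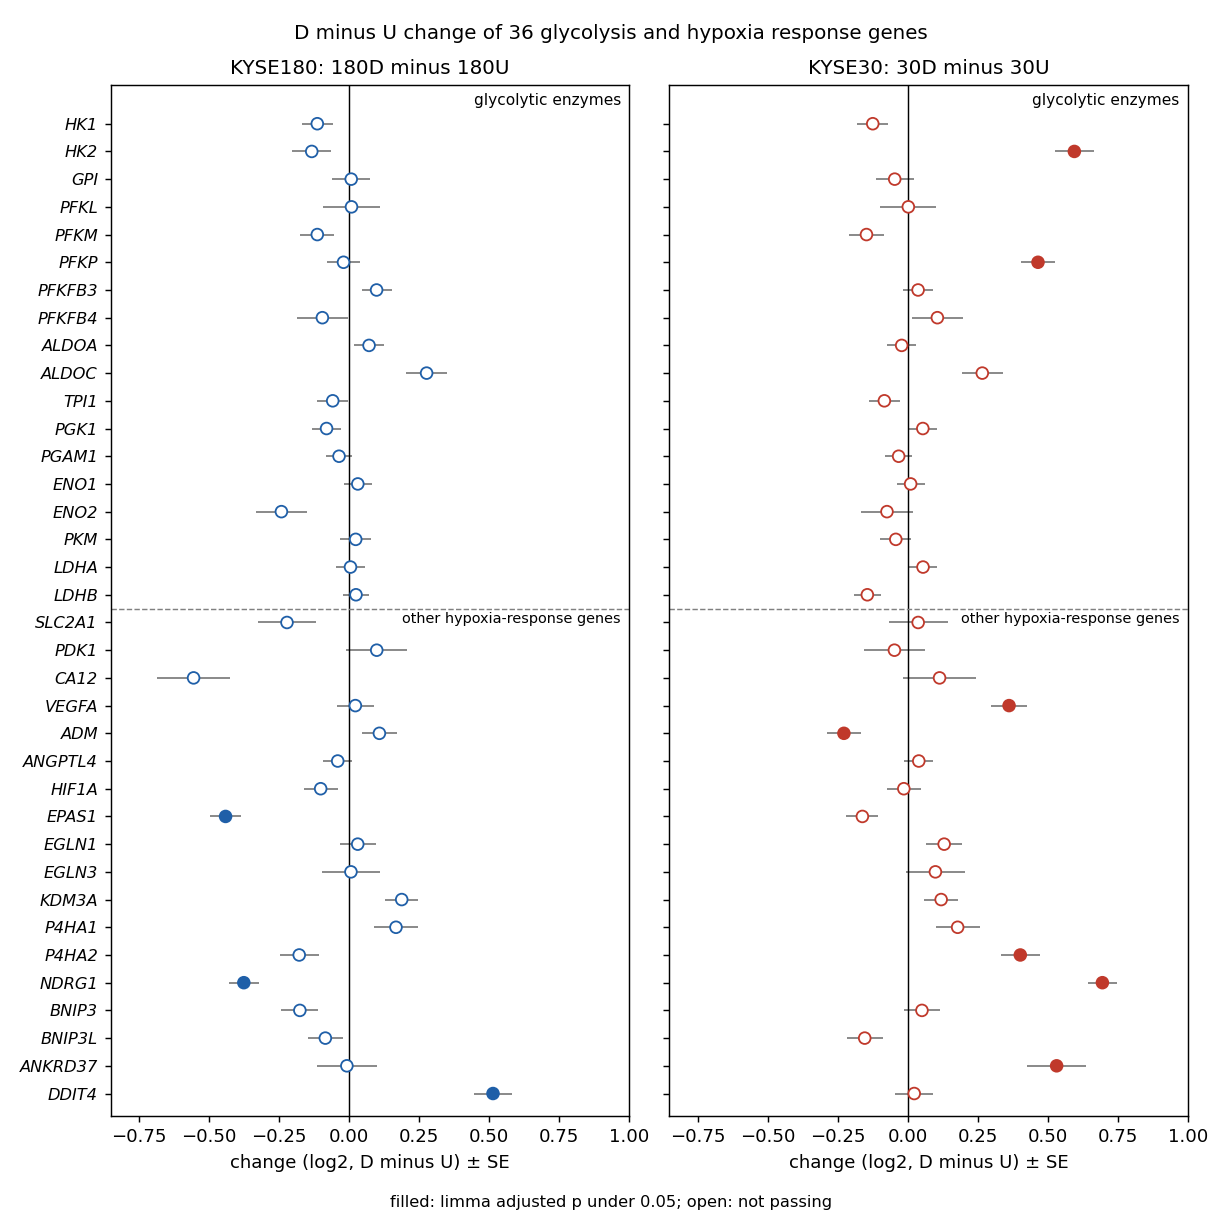
D minus U change (log2, horizontal axis) of the 36 measured members in KYSE180 (left) and KYSE30 (right), with bars of 1 SE and filled points past the threshold. Of the glycolytic genes HK2 and PFKP are filled on the right, and on the left 0 of 18 are.

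Taken by parental population, 11 of 36 members (30.6%) had a D minus U change of the same sign in all 4, against 20.9% of all genes tested, 12.9% higher and 8.01% lower. The count was added after the changes had been seen. ALDOC, PFKFB3, KDM3A and P4HA1, 4 genes, were higher in every D subline. For ALDOC the changes by population were 0.24 and 0.31 (log2) in KYSE180 and 0.14 and 0.39 in KYSE30. For KDM3A, a histone demethylase that depends on oxygen, they were 0.15 and 0.23 in KYSE180 and 0.08 and 0.16 in KYSE30. The other 7, HK1, PFKM, TPI1, PGAM1, ENO2, EPAS1 and BNIP3L, were lower in every D subline. Some of these signs rest on small changes, with PGAM1 at -0.04 to -0.03 in all 4 populations (SE within a line 0.05). In 1 KYSE30 population ENO2 was at -0.01 and PFKFB3 at 0.02, and in 1 KYSE180 population BNIP3L was at -0.02. EPAS1 had changes of -0.51 and -0.37 in KYSE180 and -0.20 and -0.12 in KYSE30. It was the 1 gene of the 11 that passed the test within a line, and it did so in KYSE180.

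The lines themselves differed far more than their fractions. Between KYSE180 and KYSE30, with fraction in the model, 26 of 36 members passed (72.2%), 11 higher and 15 lower in KYSE180. This was near the 67.1% of all genes tested that passed, 36.1% higher and 31% lower. Of the glycolytic genes 7 were higher and 5 lower in KYSE180, and of the other genes 4 were higher and 10 lower. The median difference was 0.01 (log2) for the glycolytic genes and -0.42 for the other genes, beside 0.05 over all genes tested. The sublines of a line stand in for its replicates here, so the p-values measure the spread between sublines.

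The widest differences among the enzymes were in isoforms. ENO2, the neuron-type enolase, was at 7.25 to 7.66 in the KYSE180 arrays and 4.71 to 4.89 in those of KYSE30, near the filter value, and was 2.69 ± 0.07 higher in KYSE180 (adjusted p = 9.28e-09 in limma). Its KYSE30 values lay under the array medians and were not tested against background, so no fold is given. ALDOC, the brain-type aldolase, was at 7.97 to 8.31 in KYSE180 and 5.88 to 6.27 in KYSE30, and was 2.08 ± 0.05 higher (4.22-fold). The widely expressed isoforms went otherwise: ENO1 was lower in KYSE180, with a difference of -0.36 ± 0.04, and ALDOA had a difference of 0.02 ± 0.05 that did not pass (adjusted p = 0.698). Both hexokinases were higher in KYSE180, HK1 by 1.08 ± 0.04 and HK2 by 1.23 ± 0.14. HK2 was at 9.75 to 10.01 in KYSE180 and 8.34 to 8.99 in KYSE30, and each 30D array was below every KYSE180 array. Dimmer HK2 probe sets were 0.68 and 0.82 higher in KYSE180 in a fit of all probe sets.

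Of the phosphofructokinase group, PFKP (-0.62 ± 0.10) and PFKFB4 (-0.84 ± 0.07), a regulator of the step, were lower in KYSE180. The mean over its 2 probe sets gave PFKFB4 a difference of -0.42. The lactate dehydrogenase subunits were opposed: LDHA was at 12.99 to 13.04 in KYSE180 and 13.35 to 13.43 in KYSE30, a difference of -0.37 ± 0.04, whereas LDHB, the heart-type subunit, was 0.40 ± 0.05 higher in KYSE180 (adjusted p = 5.72e-05 and 0.00011 in limma). SLC2A1 was at 10.10 to 10.41 in KYSE180 and 8.46 to 8.78 in KYSE30, and was 1.61 ± 0.09 higher (3.06-fold) by its brightest probe set. A dimmer SLC2A1 probe set was 0.78 higher in a fit of all probe sets.

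Among the other hypoxia genes EPAS1 was lowest in KYSE180 relative to KYSE30. It was at 8.66 to 9.17 in KYSE180 and 10.80 to 11.01 in KYSE30, a difference of -1.996 ± 0.07 (3.99-fold, adjusted p = 3.31e-08 in limma). HIF1A was at 11.75 to 11.92 in KYSE180 and 11.53 to 11.61 in KYSE30, a difference of 0.25 ± 0.05 (adjusted p = 0.00184). The 2 alpha subunits thus differed in opposite directions between the lines. DDIT4 was at 9.76 to 10.40 in KYSE180 and 11.69 to 11.75 in KYSE30, a difference of -1.62 ± 0.10. P4HA2 was at 8.37 to 8.65 in KYSE180 and 9.78 to 10.23 in KYSE30, a difference of -1.53 ± 0.11. Its second probe set past the filter had a difference of -0.73 in a fit of all probe sets. NDRG1 was at 7.88 to 8.30 in KYSE180 and 9.07 to 9.82 in KYSE30, a difference of -1.37 ± 0.19. In none of these genes did the arrays of the lines overlap, nor did they for PGAM1, a member that did not pass.

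BNIP3 and BNIP3L, mitophagy receptors, were lower in KYSE180, with differences of -0.52 ± 0.06 and -1.05 ± 0.05, and so was EGLN3, with -0.95 ± 0.07. VEGFA and ADM were 0.38 ± 0.08 and 0.83 ± 0.08 higher. Of the 26 calls 23 held under every alternative run. PDK1, which inhibits pyruvate dehydrogenase, had a difference of -0.63 (adjusted p = 0.000133), but one of -0.20 (adjusted p = 0.0502) with the mean of its probe sets. PKM, a pyruvate kinase gene, missed the threshold without 30D or 30U replicate 2 (0.0594 and 0.0587). ANKRD37 missed it without 180D replicate 1 or 2, 180U replicate 2, 30D replicate 1 or 2, or 30U replicate 1 (0.065 to 0.106).

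**Figure D3:**
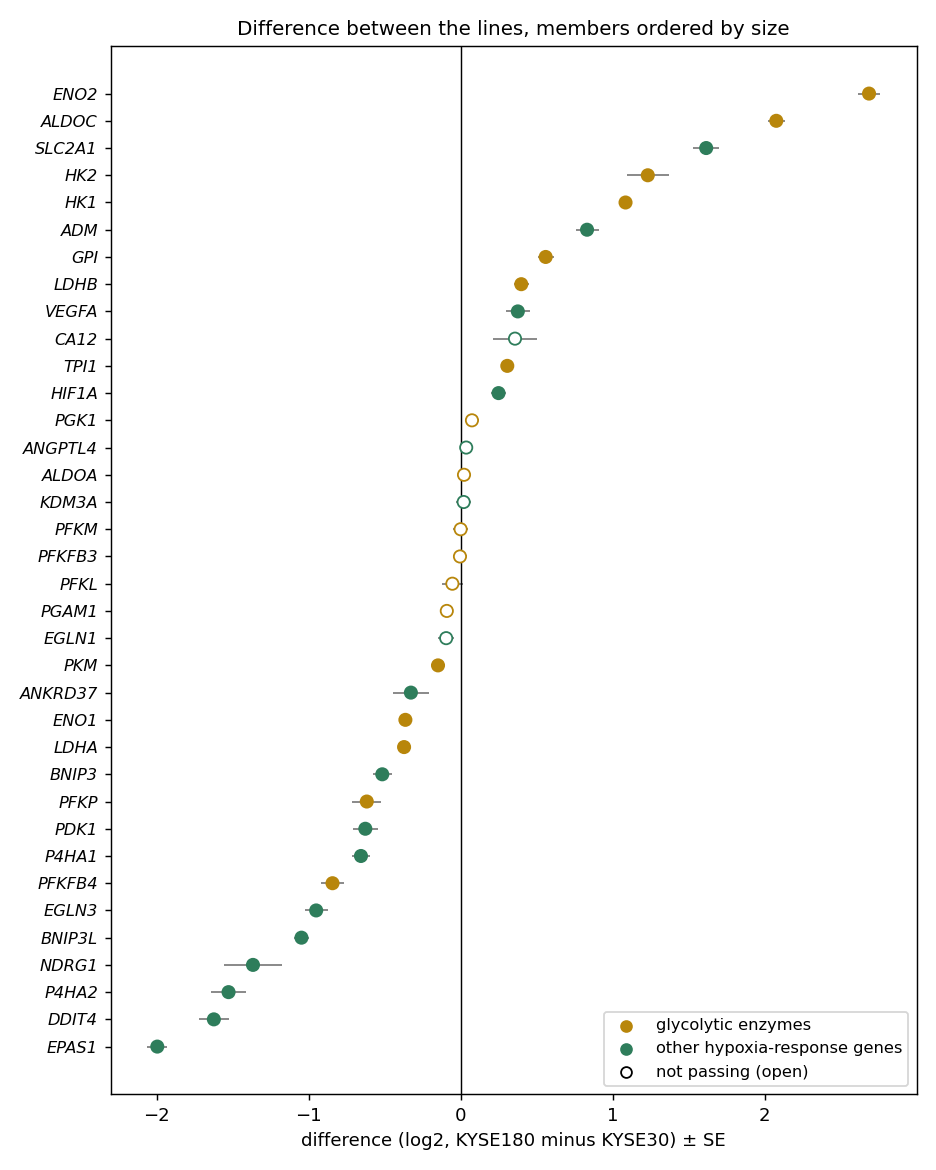
Difference between the lines (log2, KYSE180 minus KYSE30, horizontal axis, with 1 SE) of the 36 members in order of size, glycolytic genes in gold and other hypoxia genes in green. ENO2 at 2.69 and EPAS1 at -1.996 are the ends of the range, and open points did not pass.

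Other genes of central carbon metabolism and of the hypoxia response, in 5 lists that share no gene with the members, were read from the same fit. Of 24 genes of pyruvate entry and the TCA cycle, 1 rose in 180D and 0 fell, whereas in 30D 0 rose and 6 fell (25%, against 16.5% of all genes). The rise in 180D was in PDP1, a phosphatase that activates pyruvate dehydrogenase, at 0.27 ± 0.05 (adjusted p = 0.0342 in limma), and it missed the threshold under 10 of 15 alternatives, 7 of them without 1 array (either 180U array, 180D replicate 1 or any KYSE30 array), with adjusted p-values up to 0.191. The 6 were DLD, DLST, MPC2, PDP1, SDHD and MDH2, and without any 1 of the 4 KYSE30 arrays fewer genes of the list passed. Such a fit leaves 1 array in a group, and without 30U replicate 2 fewer of all genes tested passed too. The 6 included DLD, a subunit shared by the mitochondrial dehydrogenase complexes, at -0.39 ± 0.06 (adjusted p = 0.00598 in limma). DLD had adjusted p-values of 0.0503 and 0.05 without 30D or 30U replicate 1. Of 13 further glycolysis genes 0 passed in 180D (2 at an unadjusted p under 0.05). In 30D, 2 fell, TIGAR, a fructose bisphosphatase that opposes glycolysis, with a change of -0.34, and BPGM, which makes bisphosphoglycerate, with one of -0.32. TIGAR had 0.0687 and 0.0697 without 30D or 30U replicate 2, and BPGM had up to 0.127 without any of the 4 KYSE30 arrays. None of 7 pentose phosphate genes passed in limma in 180D or 30D, with 0 and 3 at an unadjusted p under 0.05. Of all 14180 genes tested, 2721 in 180D and 4380 in 30D had an unadjusted p under 0.05.

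Of 34 further hypoxia-induced genes, 5 rose and 1 fell in 180D (17.6%, against 3.75%). They were TMEM45A, a membrane protein, at 1.10 ± 0.07, IGFBP3, a binding protein of insulin-like growth factors, at 0.67 ± 0.06, RAB20, a GTPase, at 0.57 ± 0.06, BHLHE40, a transcriptional repressor, at 0.47 ± 0.08, PLOD2, a lysyl hydroxylase, at 0.37 ± 0.07, and MXI1, an antagonist of MYC, at -0.52 ± 0.06. The calls of TMEM45A, IGFBP3, RAB20 and MXI1 held under every alternative run. BHLHE40 was at 0.24 with the mean of its probe sets and did not pass (adjusted p = 0.112 in limma), nor did it without 180D replicate 1 or either 180U array (0.0707 to 0.106). PLOD2 missed the threshold under 10 of 15 alternatives, 6 of them without 1 array (any KYSE180 array or either 30D array), with adjusted p-values up to 0.165. In 30D 3 of the 34 rose and 6 fell (26.5%, against 16.5%), and fewer passed without any 1 of the 4 KYSE30 arrays. Such a fit leaves 1 array in a group, and without 30U replicate 2 fewer of all genes tested passed too. JMJD6, an oxygen-dependent hydroxylase, rose by 0.53 ± 0.06 (adjusted p = 0.00239 in limma) and kept its call throughout, and the other 2 rises were in INSIG2 (0.30 ± 0.06) and GBE1 (0.27 ± 0.05). The 6 falls were in BHLHE40, TXNIP, MXI1, HILPDA, CCNG2 and RAB20. MXI1, which fell in 180D too, fell by 0.29 ± 0.06 (adjusted p = 0.0144), and TXNIP, an inhibitor of thioredoxin and glucose uptake, fell by 0.39 ± 0.07 (adjusted p = 0.0112). BHLHE40 fell in 30D by 0.46 ± 0.08, but with the mean of its probe sets the change was -0.10 and did not pass (adjusted p = 0.354), and it had 0.0573 and 0.0567 without 30D or 30U replicate 1. RAB20 fell in 30D by 0.23 ± 0.06 (adjusted p = 0.0373).

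The difference of the changes passed for 9 of these 34 genes (26.5%, against 12.2% of all genes), among them TMEM45A (1.11 ± 0.10), RAB20 (0.80 ± 0.08), BHLHE40 (0.93 ± 0.11) and JMJD6 (-0.64 ± 0.09). The BHLHE40 difference was 0.34 (adjusted p = 0.0585 in limma) with the mean of its probe sets. Of 12 regulators of the hypoxia-inducible factor, CITED2, which competes for its coactivators, rose in 180D by 0.72 ± 0.13 (adjusted p = 0.033). It was at 5.52 and 5.50 in 180D, against 5.02 and 4.56 in 180U, near the filter value and not tested against background. CITED2 missed the threshold under 10 of 15 alternatives, with adjusted p-values up to 0.14, and its change was 0.31 with the mean of its probe sets. In 30D, 1 of the 12, ARNT2, a partner subunit, rose (0.28 ± 0.07) and 1, CREBBP, a coactivator, fell (-0.30 ± 0.05). Neither call was kept without any 1 of the 4 KYSE30 arrays. ARNT2 was at 4.74 and 4.85 in 30D, against 4.49 and 4.54 in 30U. These values lay near the filter value of 4.46 and under the array medians, and were not tested against background. The difference of the changes passed for 3 of the 24 pyruvate and TCA cycle genes. It passed for 0 of the 13 glycolysis, 7 pentose phosphate and 12 regulator genes in limma, with 2, 2 and 3 at an unadjusted p under 0.05. Of all 14180 genes tested, 3954 had an unadjusted p under 0.05 for the difference.

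Between the lines, 15 of the 24 pyruvate and TCA cycle genes were higher and 4 lower in KYSE180 (79.2%, against 67.1%), with SDHC, a succinate dehydrogenase subunit, at 0.94 ± 0.06 and IDH3G, an isocitrate dehydrogenase subunit, at -0.89 ± 0.05. Of the 34 further hypoxia-induced genes 8 were higher and 14 lower in KYSE180 (64.7%). Of the 13 further glycolysis genes 6 were higher and 2 lower, of the 7 pentose phosphate genes 4 were higher and 2 lower, and of the 12 regulators 5 were higher and 4 lower. CITED2 was at 4.56 to 5.52 in KYSE180, near the filter value, and 9.20 to 9.52 in KYSE30. It was lower in KYSE180, with a difference of -4.20 ± 0.12, or -2.62 by the mean of its probe sets, and its KYSE180 values were not tested against background.

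**Figure D4:**
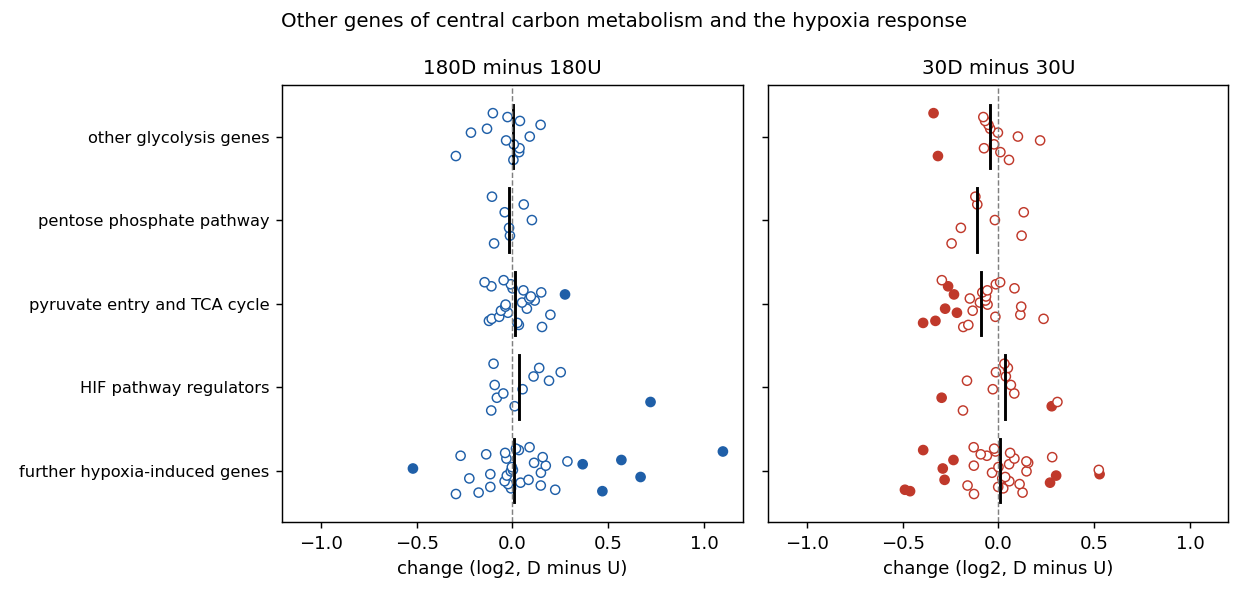
D minus U change (log2, horizontal axis) of genes in 5 further lists in KYSE180 (left) and KYSE30 (right), a point for each gene, filled past the threshold, with a bar at the list's median. In pyruvate entry and the TCA cycle 1 filled point lies above 0 on the left and 6 lie below 0 on the right.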

How the data were processed

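Gene expression was measured on 8 Affymetrix arrays. The deposited values are log2 expression, made by the authors with RMA, per the submitters' processing notes, with no RMA version given in the sources used here. RMA makes array distributions alike and compresses low signals, so changes of dim genes are understated. Genes were assigned to probe sets from the platform annotation: 41091 had 1 symbol, 1801 several and 62 were controls, and 41037 matched a RefSeq gene table (GRCh38.p14) by Entrez ID. Probe sets with 1 symbol and a mean over the arrays of at least the 40th percentile (4.46) were kept, with the brightest per gene, which left 14180 genes.

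limma 3.58.1 (lmFit, eBayes, two-sided, R 4.3.3) was fitted to all 8 arrays, with Benjamini-Hochberg adjustment over all genes tested and a threshold of 0.05. A fit of the 4 group means gave D minus U within each line and the difference of these changes. An additive fit of line and fraction gave KYSE180 minus KYSE30. The labels pair D and U sublines by parental population, and the correlation of the pairs' deviations from their group means was -0.023 in KYSE30 and 0.02 in KYSE180. With 2 arrays a group, both pairs of a line give the same value by construction. The fits had no block, and the block was an alternative. It was a fixed term for population in the D minus U fits. In the line fit it was a correlation within populations, estimated at -0.37. The spread behind the p-values is that between sublines selected apart, and 2 arrays a group limit the precision. The code was tested on simulated data.

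Members and lists were chosen with earlier results of these data known. Array values were given for members past the threshold with a change or difference of the changes of at least 0.5, the 8 with the widest line difference, and HIF1A, SLC2A1 and LDHA. Genes of the other lists were named from up to 4 with the smallest p in each list and comparison. Array values of PFKP, VEGFA, ADM, CA12 and ALDOC within a line, changes of other members, and the names of PLOD2 and BHLHE40 in 180D and of RAB20, INSIG2, GBE1, HILPDA, CCNG2, SDHD and MDH2 in 30D, were added after values were seen. Alternatives are given in the closing section. The fit of all probe sets, the same-sign count and the promoter search were added after the data were seen. The promoter search first used 1 window a gene and was changed to all windows, because several genes have many start sites.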

Additional observations from a re-analysis of the deposited data

Results flagged for a closer look

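For 6 members the D minus U change differed between the lines in a test of the difference itself, as the KYSE180 change minus the KYSE30 change (limma, adjusted over all genes tested). The difference was -1.07 for NDRG1 (-1.0691, adjusted p = 0.000365), which was lower in 2 of 2 180D arrays and higher in 2 of 2 30D arrays than in every U array of its line. It was -0.73 for HK2 (-0.7268, adjusted p = 0.0057), -0.58 for P4HA2 (-0.5787, adjusted p = 0.0121) and -0.48 for PFKP (-0.4839, adjusted p = 0.013). It was 0.49 for DDIT4 (0.491, adjusted p = 0.0202) and 0.34 for ADM (0.3365, adjusted p = 0.0492). Of these, the NDRG1 call held under every alternative run, and each of the other 5 missed the threshold under at least 1, as given with the results.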

How the results depend on the processing

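Alternatives were other filters on dim probe sets, centring each array on its median, an intensity trend, the mean of a gene's probe sets, the parental population as a block, only the 4 arrays of a line, and leaving out each array. No member that passed changed direction in any of them. In 30D against 30U 2 glycolytic genes passed, and 4 did with the trend and 4 with the mean of probe sets. The 5 other hypoxia genes became 1 to 5 without 1 array. In 180D against 180U the 3 other hypoxia genes became 1 with the replicate block (parental population) and 0 with only the arrays of that line. In the difference of the changes, 1 glycolytic gene passed with the mean of probe sets and 1 to 2 without 1 array, against 2, and the 4 other hypoxia genes became 7 with the filter at the 60th percentile, 9 with the trend and 1 to 4 without 1 array. The block, which pairs sublines of 1 population, ended the member calls of EPAS1 and NDRG1 in 180D, of ADM in 30D and of ADM in the difference, and no other member call. Over all genes, the counts ran from 195 to 1069 in 180D against 180U (532 as reported), 834 to 3215 in 30D against 30U (2346), 727 to 2700 for the difference (1723) and 8294 to 10359 between the lines (9518). Member calls kept in all alternatives were 0 of 3 in 180D, 3 of 7 in 30D, 1 of 6 for the difference and 23 of 26 between the lines. Of all calls in the 5 other lists, 4 of 8 in 180D, 1 of 19 in 30D and 5 of 12 for the difference were kept, and between the lines 20 of the 20 refitted, up to 4 with the smallest p in each list. With 2 arrays a group, the standard error of a member's change within a line ran up to 0.131 (log2), for CA12, a dim gene.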
